A study of Triticum turgidum subsp. durum with 24 samples.

Results

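The 100 genes described here were the most abundant early transcripts of the durum wheat endosperm, out of 66,559 genes listed. They had the highest mean TPM (a transcript level that kallisto divides by length and brings to the same sum in every library) at 6 days post anthesis (dpa), once 3 kinds of gene were left out. These were the 300 genes with the highest mean TPM at 30 dpa, the genes of a list of starch-related genes compiled by the study, and the genes at the start of chromosomes 1A and 1B by identifier. The endosperm came from wild-type plants of the variety Kronos, an untreated tetraploid wheat with A and B genomes, and was dissected from the grain at 6, 8, 10, 13, 15, 18, 20 and 30 dpa. With 3 replicates at each timepoint this made 24 libraries. A replicate was a pool of several endosperms of 1 spike, and fewer were pooled at later timepoints. Replicates of a timepoint came from independent plants, and the spikes of 1 plant served different timepoints.

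The endosperm of a cereal grain starts as a sac of nuclei that is divided into cells soon after fertilisation. Its cells then divide, take on their identities and enter grain filling, when starch and storage proteins accumulate until the grain dries. During filling, transcripts for starch synthesis and storage proteins come to dominate the tissue. The tables carry only gene identifiers, so no product or role is given for any member. The library is a bulk of all cells in the dissected tissue, in which fewer cells of a type and less RNA per cell cannot be told apart.

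The values at 6 and 30 dpa chose the members and are given as a description. At 6 dpa, 178 genes had a mean at least as high as the last member, and 78 of them were left out. All 78 were among the 300 genes of 30 dpa, and 2 of the 78 also lay in the stretches of 1A and 1B left out. The last members were TRITD2Bv1G089360 with 808.0 TPM and TRITD7Bv1G191400 with 802.1 TPM at 6 dpa, and the first genes outside were TRITD5Av1G126130 with 798.3 TPM and TRITD3Av1G021050 with 798.0 TPM. At the other limit, the members with the highest mean at 30 dpa were TRITD6Bv1G023750 with 159.1 TPM and TRITD1Bv1G103320 with 157.7 TPM. The genes just left out were TRITD5Bv1G205580 with 164.2 TPM and TRITD5Bv1G104150 with 165.0 TPM. At 30 dpa, 53 members were still among the first 1000 genes and 22 had a mean under 1 TPM. The members thus ran from transcripts that nearly qualified as late transcripts to transcripts that were close to 0 in the late grain.

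Estimated counts totalled 56180606 to 115800050 per library. The summed level of 8 starchy endosperm markers (subunits of ADP-glucose pyrophosphorylase, the ADP-glucose transporter BT1 and granule-bound starch synthase 1) ranged from 385.5 to 652.2 TPM at 6 dpa and from 3647.7 to 4643.0 TPM at 15 dpa. GBSSII-B1, whose enzyme makes amylose in the pericarp, lay between 4.47 and 14.5 TPM at 6, 8 and 10 dpa and between 0.208 and 0.436 TPM at 30 dpa. At 10 dpa replicate 1 stood apart, with a marker sum of 2225 TPM beside 6503 and 5580 TPM in replicates 2 and 3. At 13 dpa replicate 3 stood apart, with 2704 TPM beside 6059 and 5066 TPM in replicates 1 and 2. Their part in the results below is given as counts with and without them.

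The members shared a property that the rule did not name: their transcripts were short. Their coding length (the lengths in the tables are nearly all multiples of 3) ranged from 192 to 1194 bp with a median of 334.5 bp, against a median of 1056 bp over all transcripts. Of the members, 99 were under 600 bp, against 24.5% of all transcripts. The next 100 genes by the same rule were short as well, with a median of 423 bp, so short transcripts are not particular to the members. The shortest 2 members, TRITD5Av1G047320 and TRITD5Bv1G044180, had 192 bp, the shortest length in the tables, and the longest, TRITD2Bv1G034950, had 1194 bp. TPM divides counts by an effective length, which for 192 bp was 42.4 to 44.2 bp in the libraries of 6 dpa. At 6 dpa 1 TPM of TRITD5Av1G047320 therefore stood for 7.06 counts, and 1 TPM of TRITD2Bv1G034950 for 149 counts. Ranking the same genes by CPM (counts divided by the library total only) in place of TPM gave 100 genes with a median coding length of 1023 bp, of which 19 were members. The list therefore rests on the division by length, and the 6 dpa level of its shortest transcripts rests on the estimate of their effective length.

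In the gene models of the Svevo v1 assembly, 98 members had a position. The gene span equalled the coding length in 36 of these 98, a gene model with neither intron nor UTR, against 23.6% of all transcripts with a position. The 2 sets differ in length, with a median of 334.5 bp for the members and 1056 bp for all transcripts. Whether the members differ in this from transcripts of their own length was not tested. The A genome held 50 members, the B genome 48, and 2 were unplaced. Chromosome 1B held the most members with 13, followed by 1A and 3B with 10 each, and 7B the fewest with 2.

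**Figure D1:**
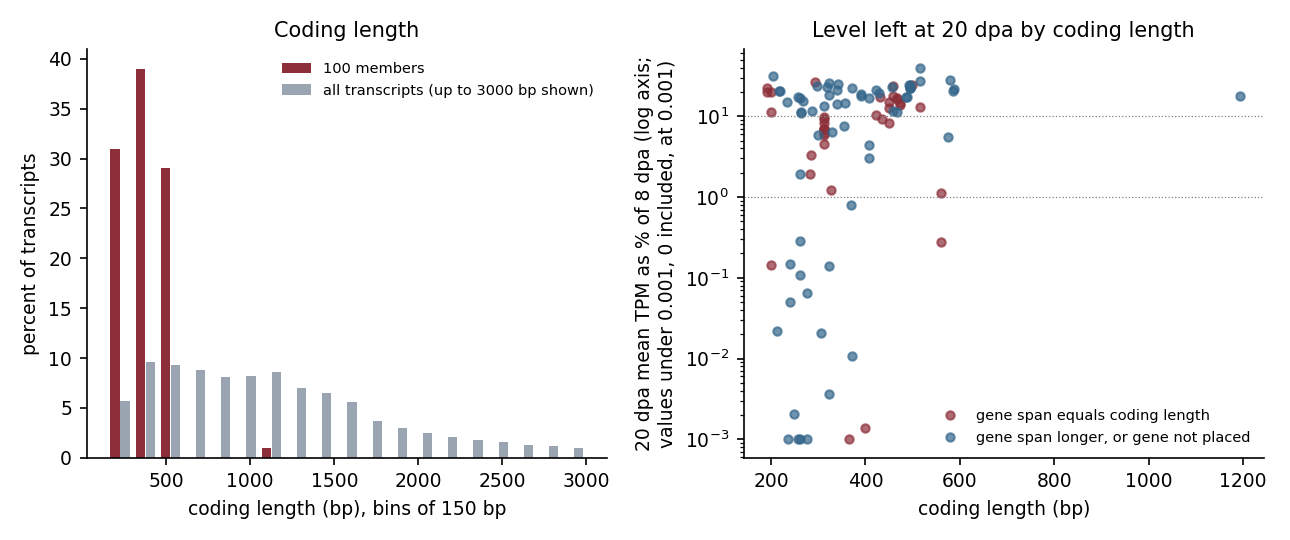
Left, percent of the 100 members (dark bars) and of all transcripts (grey bars) by coding length in bp, in bins of 150 bp. Right, mean TPM at 20 dpa as a percent of that at 8 dpa (log axis) against coding length for each member, with dotted lines at 10% and 1%. 99 members were under 600 bp, those with at least 10% left and those with under 1% left alike except for the longest, at 1194 bp.

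The members held 13.0% ± 0.738 of all TPM at 6 dpa (SD, n = 3 for this and the next values), 11.2% ± 0.826 of it at 8 dpa, 7.15% ± 2.23 of it at 10 dpa and 3.32% ± 0.189 of it at 13 dpa. Their share then was 2.22% ± 0.143 in the libraries of 15 dpa, 1.32% ± 0.305 in those of 18 dpa, 1.25% ± 0.0715 in those of 20 dpa and 0.673% ± 0.116 in those of 30 dpa. The 3 libraries of 13 dpa all lay under the 3 of 10 dpa, whereas the libraries of 18 and 20 dpa overlapped. The widest spread was at 10 dpa, where the share was 9.59% in replicate 1, 5.21% in replicate 2 and 6.65% in replicate 3. Replicate 1 was also the library with the lowest marker sum of that timepoint, and its part in the spread was not tested. Of the estimated counts, the members held 4.02% ± 0.284 at 6 dpa and 3.35% ± 0.373 at 8 dpa, but 1.06% ± 0.0430 by 13 dpa and 0.468% ± 0.0425 by 20 dpa.

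**Figure D2:**
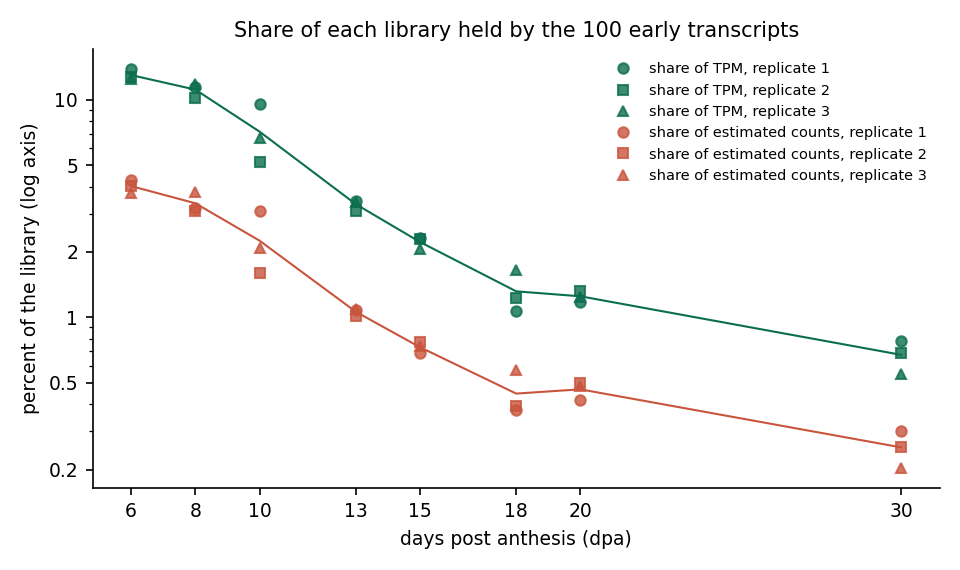
Percent of each library held by the 100 members (log axis) against days post anthesis, in TPM (green) and in estimated counts (red). Each point is a library, marker shapes give the replicate and lines join the means, which were 11.2% of TPM at 8 dpa and 1.25% at 20 dpa.

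The scale mattered for the size of the decline. TMM scaling (which sets the bulk of genes level between libraries) gave factors of 1.55 to 1.58 at 8 dpa and 0.689 to 0.836 at 20 dpa. In CPM (estimated counts divided by the library total, here scaled by TMM) the members summed to 23886 ± 3670 CPM at 6 dpa, 21376 ± 2185 CPM at 8 dpa, 16949 ± 3518 CPM at 10 dpa and 9476 ± 1831 CPM at 13 dpa (SD, n = 3). The sums were 8044 ± 575 CPM at 15 dpa, 6045 ± 835 CPM at 18 dpa, 6120 ± 343 CPM at 20 dpa and 5021 ± 1005 CPM at 30 dpa. The fold changes below are on this scale, so they state what members did relative to the bulk of genes and are smaller than the ratios of TPM. The effective length of a 192 bp transcript was also larger at 20 dpa, 62.4 to 83.1 bp, than at 8 dpa, 44.4 to 45.9 bp, which lowers the TPM of the shortest members at 20 dpa for the same counts.

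Most members were highest at the first timepoint. The mean TPM was highest at 6 dpa for 79 members, at 8 dpa for 20 members and at 10 dpa for 1 member, TRITD7Av1G027060. On scaled CPM these numbers were 71, 16 and 12, and 1 member was highest later. Taking the mean at 8 dpa as the start, 31 members were under 50% of it in TPM by 10 dpa, a further 52 by 13 dpa, then 16 by 15 dpa and 1 by 18 dpa. On scaled CPM 18 members were under 50% by 10 dpa, a further 34 by 13 dpa, 12 by 15 dpa, 21 by 18 dpa and 4 by 20 dpa, and 11 were never under it up to 20 dpa.

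The depth of the decline separated the members into groups, defined here by the mean TPM left at 20 dpa as a percent of that at 8 dpa. At least 10% was left for 58 members, 1 to 10% for 22 and under 1% for 20. The limits did not fall in wide gaps, since TRITD6Bv1G222680 had 10.2% and TRITD5Av1G190180 had 9.88% left, and TRITD1Bv1G165990 had 1.12% and TRITD4Av1G202710 had 0.797% left. On scaled CPM 73 members kept at least 10%, 8 kept 1 to 10% and 19 kept less. The median percent left was 18.5% in the first group, 6.00% in the second and 0.0211% in the third. The median coding length was 423 bp in the first group, 312 bp in the second and 268.5 bp in the third. A gene span equal to the coding length was found for 17 of 56 placed members of the first group, 15 of 22 of the second and 4 of 20 of the third.

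**Figure D3:**
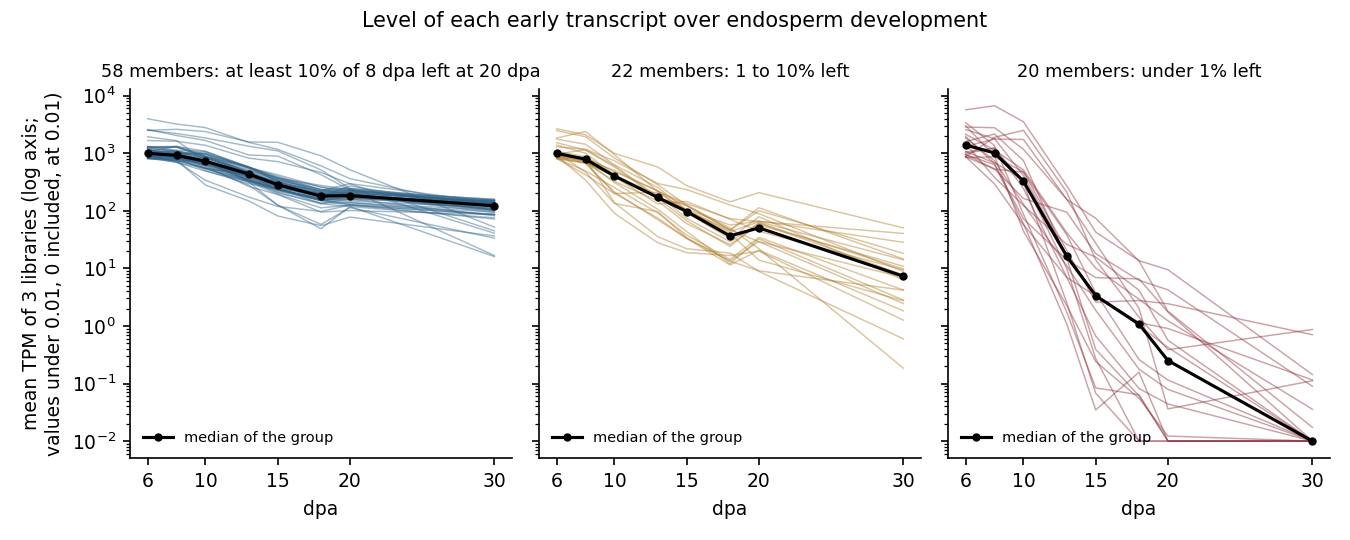
Mean TPM of 3 libraries (log axis) against days post anthesis for each member (thin lines) and the median of the group (black), by the percent of the 8 dpa level left at 20 dpa. The medians at 20 dpa were 184.4 TPM for the 58 members with at least 10% left, 50.6 TPM for the 22 with 1 to 10% and 0.251 TPM for the 20 with under 1%.

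The 20 members with under 1% left were a large part of the early signal. They summed to 36278 ± 427 TPM at 6 dpa (SD, n = 3 here and below), 28226 ± 5326 TPM at 8 dpa, 13193 ± 8592 TPM at 10 dpa and 1107 ± 703 TPM at 13 dpa. Later they summed to 226 ± 134 TPM at 15 dpa, 56.1 ± 28.7 TPM at 18 dpa, 23.5 ± 6.20 TPM at 20 dpa and 2.09 ± 0.680 TPM at 30 dpa. At 10 dpa replicate 1 held 23039 TPM, replicate 2 held 7212 TPM and replicate 3 held 9328 TPM. The 3 libraries of 10 dpa lay above every library of 13 dpa, which held 535 to 1892 TPM.

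The most abundant member was in this group. TRITD3Bv1G185290 (chromosome 3B, 566319318 to 566319733, coding length 324 bp) had 6569, 5158 and 5314 TPM at 6 dpa and 7791, 6134 and 6123 TPM at 8 dpa. It had 5755, 1560 and 3256 TPM at 10 dpa, 477.0, 198.1 and 137.1 TPM at 13 dpa, and 10.8, 7.56 and 10.1 TPM at 20 dpa. The level at 10 dpa was near that of 8 dpa in replicate 1 and lower in the other replicates, and all libraries of 13 dpa lay far under those of 10 dpa.

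TRITD2Bv1G174980 (chromosome 2B, 516926701 to 516927066, 366 bp) and TRITD2Av1G210800 (chromosome 2A, 582123649 to 582124047, 399 bp) had the largest falls of all members at 10 against 8 dpa, tested below. TRITD2Bv1G174980 had 2596, 3830 and 3748 TPM at 6 dpa, 1564, 1122 and 1396 TPM at 8 dpa, and 160.4, 18.6 and 83.6 TPM at 10 dpa. TRITD2Av1G210800 had 1545, 3933 and 3528 TPM at 6 dpa, 993.5, 815.9 and 875.3 TPM at 8 dpa, and 85.5, 9.67 and 37.7 TPM at 10 dpa. Both gene models had neither intron nor UTR, and no library of 10 dpa overlapped with those of 8 dpa for either gene. At 13 dpa TRITD2Bv1G174980 had 2.91, 2.22 and 0.0661 TPM, and it had 0 TPM in the libraries of 20 and 30 dpa.

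TRITD6Av1G000370 (chromosome 6A, 662785 to 663195, 276 bp) had 3974, 2014 and 2577 TPM at 6 dpa, 3216, 1982 and 3135 TPM at 8 dpa and 3.49, 0.862 and 1.05 TPM at 20 dpa. TRITD6Av1G017650 (chromosome 6A, 37977467 to 37977927, 240 bp) had 2650, 2648 and 2414 TPM at 6 dpa, 1648, 1735 and 1993 TPM at 8 dpa and 1.24, 0.586 and 0.883 TPM at 20 dpa. At 10 dpa they differed in how far they had declined, with 2033, 632.9 and 852.2 TPM for TRITD6Av1G000370 and 734.8, 65.8 and 431.8 TPM for TRITD6Av1G017650. In both, replicate 1 of 10 dpa was the highest of its timepoint and replicate 2 the lowest.

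The mean TPM was highest after 6 dpa in 7 of these 20 members, 6 of them at 8 dpa, TRITD3Bv1G185290 included, and 1 at 10 dpa. TRITD7Av1G027060 (chromosome 7A, 54616973 to 54617842, 306 bp) had 848.5, 780.8 and 992.4 TPM at 6 dpa, 2212, 1566 and 1887 TPM at 8 dpa and 4532, 1713 and 1262 TPM at 10 dpa. It then had 394.7, 131.2 and 106.5 TPM at 13 dpa, 22.4, 16.6 and 3.19 TPM at 15 dpa and 0.421, 0.307 and 0.432 TPM at 20 dpa. The mean at 10 dpa exceeded that of 8 dpa through replicate 1 alone. TRITD3Av1G018160 (chromosome 3A, 35727555 to 35727943, 276 bp) had 1471, 1634 and 1677 TPM at 6 dpa, 3204, 1292 and 1990 TPM at 8 dpa and 29.8, 11.2 and 3.96 TPM at 13 dpa. Its libraries of 8 dpa spread on both sides of those of 6 dpa.

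5 members had 0 counts in the 3 libraries of 20 dpa, so a fold is given only as a bound, with 3 counts over those libraries as the limit that a count of 0 allows. The folds here are on counts divided by the TMM-scaled library sizes, so they differ from the plain ratio of the counts. Such limits cover counting error only. TRITD2Bv1G174980, with 27049, 17015 and 25821 counts at 8 dpa, was at least 11183-fold lower at 20 dpa. TRITD3Av1G018160, with 33081, 11947 and 22339 counts at 8 dpa, was at least 10780-fold lower. The bounds were at least 5720-fold lower for TRITD7Av1G236290 (258 bp), 3210-fold for TRITD3Av1G013460 (261 bp) and 2809-fold for TRITD1Av1G138210 (237 bp). TRITD2Av1G210800 had 1 count at 20 dpa and 56863 counts at 8 dpa. On the same scale this was a ratio of 27298, with a 95% counting interval (exact Poisson) of 4899 to 1.08e+06.

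The 58 members with at least 10% left declined less than the others, by the definition of the group, and most were still well detected in the oldest grain. They summed to 67138 ± 3728 TPM at 6 dpa, 61795 ± 3999 TPM at 8 dpa, 28137 ± 1798 TPM at 13 dpa, 11263 ± 504 TPM at 20 dpa and 6486 ± 1072 TPM at 30 dpa. Some were low in most libraries of 30 dpa, and TRITD1Bv1G222370 had 1.75, 1.97 and 46.4 TPM there. The means of the 58 members ranged from 77.8 to 515.9 TPM at 20 dpa. At 30 dpa these means ranged from 16.0 to 159.1 TPM, with a median of 122.4 TPM. TRITD2Av1G152730 (chromosome 2A, 420471345 to 420471717, 264 bp), the most abundant of them, had 4263, 4292 and 3341 TPM at 6 dpa and 3251, 3197 and 3206 TPM at 8 dpa. It had 1891, 1436 and 1302 TPM at 13 dpa and 505.2, 356.1 and 225.2 TPM at 20 dpa, a decline in which no library of a later of these timepoints reached one of an earlier.

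The members that changed least between 8 and 20 dpa in edgeR were also in this group. TRITD1Av1G224070 (chromosome 1A, 572315238 to 572315666, 204 bp) had 168.0, 283.3 and 204.0 TPM at 20 dpa, against 524.0, 664.9 and 890.2 TPM at 8 dpa. TRITD0Uv1G066540 (unplaced, 516 bp) had 222.1, 307.0 and 360.9 TPM at 20 dpa, against 677.4, 723.2 and 834.9 TPM at 8 dpa. In TPM neither gene overlapped between the timepoints, whereas relative to the bulk of genes neither change passed the test. TRITD3Bv1G200930 (chromosome 3B, 614077773 to 614078066, 294 bp) had 189.5, 197.3 and 165.1 TPM at 20 dpa, against 688.2, 669.7 and 719.6 TPM at 8 dpa. TRITD5Av1G047320 (chromosome 5A, 120158509 to 120158700, 192 bp) had 234.3, 243.1 and 142.4 TPM at 20 dpa, against 905.4, 881.1 and 970.4 TPM at 8 dpa. TRITD3Bv1G201330 (chromosome 3B, 615584770 to 615585247, 324 bp) had 191.7, 213.3 and 284.3 TPM at 20 dpa, against 915.4, 842.4 and 925.3 TPM at 8 dpa. The replicates of these 3 genes were close to each other at 8 dpa.

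The 22 members with 1 to 10% left summed to 26652 ± 3556 TPM at 6 dpa, 21507 ± 2153 TPM at 8 dpa, 3939 ± 71.9 TPM at 13 dpa, 956 ± 398 TPM at 18 dpa and 1229 ± 345 TPM at 20 dpa. A coding length of 312 bp occurred in 10 members, more than any other length, and 9 of these 10 had a gene span equal to the coding length. The tables hold 192 transcripts of 312 bp, and beside these 9 a further 96 of them had a gene span equal to the coding length. Such a gene model was thus common at this length and not particular to the members. These 9 genes lay on chromosomes 1A, 1B, 3A, 3B, 5A, 5B and 6B. Their mean TPM at 6 dpa ranged from 810.8 to 2664. Their log2 fold change of 20 against 8 dpa in edgeR was -3.28 to -2.15, a smaller decline than in TPM. The group is thus one of TPM, and on scaled CPM 8 members kept 1 to 10%.

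The sum of the 9 genes was 15819, 11797 and 11357 TPM at 6 dpa, 8559, 9319 and 12018 TPM at 8 dpa, 5463, 3002 and 5239 TPM at 10 dpa and 1632, 2092 and 2261 TPM at 13 dpa. It was 829.3, 981.3 and 856.0 TPM at 15 dpa, 212.6, 309.9 and 670.5 TPM at 18 dpa, 375.9, 868.9 and 957.2 TPM at 20 dpa, and 227.3, 121.0 and 92.8 TPM at 30 dpa. The sum was thus high in replicate 3 of 18 dpa and low in replicate 1 of 20 dpa, so that the 2 timepoints overlapped. Each of the 9 genes was highest in replicate 3 at 18 dpa and lowest in replicate 1 at 20 dpa, but so were 42 of the other 91 members, and the order of the replicates is not particular to this length. TRITD5Av1G190180 (chromosome 5A, 513737407 to 513737718), the most abundant of them, had 117.3, 230.3 and 273.4 TPM at 20 dpa, against 98.3, 134.5 and 197.1 TPM at 18 dpa. For these 9 genes the log2 fold change of 20 against 18 dpa was 0.23 to 1.46, and none passed the test (adjusted p 0.0956 to 0.749, edgeR). Of the other 91 members, 34 had a log2 fold change above 0 in that comparison. The median was 1.16 over the 9 genes and -0.06 over the other 91 members, a difference that was not tested. The 9 genes may share reads if their sequences are close, which was not examined here, and their sum is then more certain than the level of each. The tenth member of 312 bp, TRITD1Bv1G013300, had a longer gene span and had 140.4, 157.8 and 141.4 TPM at 20 dpa.

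**Figure D4:**
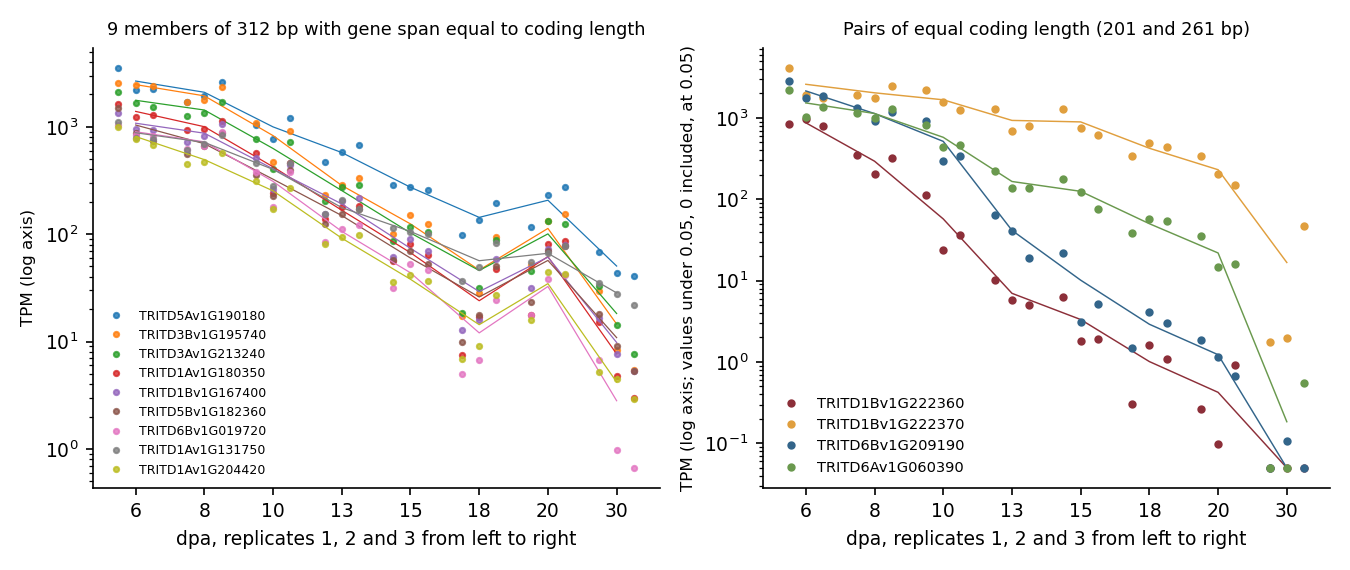
TPM (log axis) in each library against days post anthesis, with replicates 1, 2 and 3 side by side and lines through the means. Left, the 9 members of 312 bp whose gene span equals the coding length, which sum to 212.6, 309.9 and 670.5 TPM at 18 dpa. Right, the neighbours TRITD1Bv1G222360 and TRITD1Bv1G222370 and the pair TRITD6Bv1G209190 and TRITD6Av1G060390, in each of which the levels were further apart at 20 dpa than at 8 dpa.

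Members of equal coding length on the A and B chromosomes of 1 group were looked up, since the homeologs of a tetraploid wheat often agree in length. There were 37 members with such a partner, and 10 pairs were unambiguous by length alone. Equal length does not show that 2 genes are homeologs, and sequences were not used here. kallisto divides reads that near-identical transcripts share, so each copy is less certain than the sum. Within the 10 pairs, 9 differed by less than 2-fold in TPM at 8 dpa and 6 at 20 dpa.

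The ratio within a pair was near constant in some and varied in others. The mean log2 ratio of TRITD5Av1G047320 over TRITD5Bv1G044180 (TPM with 0.1 added) lay between -0.06 and 0.17 over the 8 timepoints. That of TRITD2Av1G152730 over TRITD2Bv1G126020 (chromosome 2B, 372891034 to 372891411, 264 bp) was 0.55 ± 0.10 at 8 dpa (SD, n = 3), declined to 0.08 ± 0.12 by 15 dpa, and was 0.62 ± 0.19 again at 20 dpa and 1.44 ± 0.19 in the libraries of 30 dpa. Other pairs were further apart at 20 dpa. TRITD3Av1G013460 had 0, 0 and 0 TPM and TRITD3Bv1G016580 had 3.30, 2.29 and 1.70 TPM at 20 dpa, after 972.1, 513.0 and 573.2 TPM and 1362, 682.6 and 540.6 TPM at 8 dpa. TRITD6Av1G060390 (chromosome 6A, 144607387 to 144607787, 261 bp) had 34.9, 14.8 and 15.9 TPM at 20 dpa. TRITD6Bv1G209190 (chromosome 6B, 648799507 to 648799927, 261 bp) had 1.86, 1.15 and 0.681 TPM at 20 dpa. Their log2 ratio was 4.03 ± 0.40 at 20 dpa against 0.01 ± 0.19 at 8 dpa. The 2 genes lay at very different positions on their chromosomes, and they are not taken as homeologs here. The last pair was chosen after its values were seen, and none of these ratios was tested.

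Members within 10 genes of each other formed 3 pairs, each of equal length. TRITD1Bv1G222360 and TRITD1Bv1G222370 (201 bp each) lay next to each other on chromosome 1B with starts 881 bp apart. TRITD1Bv1G222360 had 0.265, 0.0980 and 0.908 TPM at 20 dpa, against 354.8, 204.6 and 321.6 TPM at 8 dpa. TRITD1Bv1G222370 had 335.7, 204.9 and 151.6 TPM at 20 dpa, against 1887, 1735 and 2481 TPM at 8 dpa. The neighbours thus fell in different groups, with 0.144% and 11.3% of the 8 dpa level left at 20 dpa. Another member of 201 bp, TRITD1Av1G224720 on chromosome 1A (573455042 to 573455242), had 734.8, 468.2 and 344.7 TPM at 20 dpa, against 2391, 2238 and 3195 TPM at 8 dpa. TRITD1Bv1G222370 and TRITD1Av1G224720 also shared a high replicate 1 at 6 dpa, 4134 TPM beside 1891 and 1743 TPM, and 4038 TPM beside 1736 and 1724 TPM. TRITD1Bv1G165990 and TRITD1Bv1G166050 (561 bp each, 1 gene between them) had 1.12% and 0.274% left, and TRITD4Av1G155810 and TRITD4Av1G155830 (450 bp each, 1 gene between them) had 8.36% and 15.1% left.

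Differences between timepoints that the rule did not use were tested on estimated counts with the quasi-likelihood test of edgeR, over 44,240 genes that include all 100 members. A gene was called at a Benjamini-Hochberg adjusted p of at most 0.05 and a change over 1.5-fold. Because 8 and 20 dpa lie beside the timepoints that chose the members, a decline between them is in part what the rule selects, and it is read here for its size and order. At 20 dpa against 8 dpa, 95 members fell, against 22.1% of all genes tested, and 0 members rose, against 25.6% of all genes. The median log2 fold change of the members was -1.83, with quartiles of -3.73 and -1.20, against a median of 0.08 over all genes. With the genes at 0 counts set at their bounds the median was -1.83 as well. The members just below the limit of the list did much the same: of the next 100 genes by the same rule 90 fell and 0 rose, with a median of -1.48.

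5 members were not called at 20 against 8 dpa. These were TRITD1Av1G224070 (log2 fold change -0.21 ± 0.28 SE, adjusted p = 0.552, edgeR), TRITD0Uv1G066540 (-0.34 ± 0.20, adjusted p = 0.157), TRITD1Av1G224720 (-0.89 ± 0.67, adjusted p = 0.276), TRITD1Bv1G222370 (-1.69 ± 0.75, adjusted p = 0.0627) and TRITD1Bv1G022940 (-1.21 ± 0.61, adjusted p = 0.0989). The first of these had a value of 0.12 without replicate 3 of 8 dpa. Among the called members, TRITD3Bv1G200930 fell by 0.66 ± 0.16 on the log2 scale (adjusted p = 0.00203), TRITD5Av1G047320 fell by 0.68 ± 0.21 (adjusted p = 0.0101) and TRITD3Bv1G201330 fell by 0.78 ± 0.20 (adjusted p = 0.00299). The call of TRITD3Bv1G200930 was lost without replicate 3 of 20 dpa (log2 fold change -0.52, short of 1.5-fold), and that of TRITD5Av1G047320 without replicate 3 of 8 dpa (-0.54, adjusted p = 0.058). TRITD3Bv1G185290, the most abundant member at 6 dpa, fell by 8.25 ± 0.72 (adjusted p = 3.52e-08), and TRITD5Av1G190180 of the 312 bp set fell by 2.15 ± 0.31 (adjusted p = 1.2e-05).

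**Figure D5:**
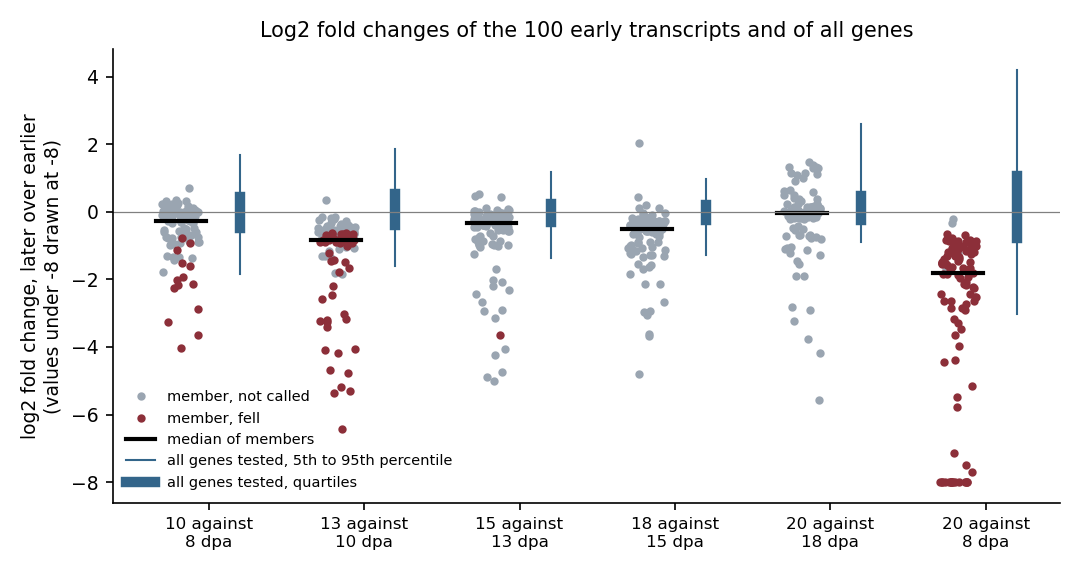
Log2 fold change, later over earlier timepoint, of the 100 members (points; called members dark, values under -8 drawn at -8) and of all genes tested (bars for quartiles, lines for the 5th to 95th percentile) in 6 comparisons. The medians of the members (black) were -0.26, -0.83, -0.33, -0.52 and -0.03 in the successive steps and -1.83 for 20 against 8 dpa.

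The steps between successive timepoints are given next. The number of calls in a step depends on the spread of its libraries as well as on the size of the fall. At 10 against 8 dpa, 14 members fell, against 4.63% of all genes, and 0 rose, against 7.54% of all genes. Of these 14, 8 belonged to the 20 members with under 1% left at 20 dpa, a group sorted by the fall from 8 to 20 dpa, which includes this step. TRITD2Av1G210800 fell by 4.02 ± 0.68 on the log2 scale (adjusted p = 0.00088, edgeR) and TRITD2Bv1G174980 fell by 3.64 ± 0.68 (adjusted p = 0.00242), the largest falls of this step. Both were lower in 3 of 3 libraries of 10 dpa than in any of 8 dpa. The median log2 fold change of all members was -0.26, and 25 members had a value above 0. The number of members that fell was 7 without replicate 3 of 8 dpa and 8 without replicate 2 of 10 dpa, and 7 members were called in all 6 fits without 1 library of either timepoint. Calls over all genes are not given for these fits, so it was not examined whether all genes lost calls alike.

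At 13 against 10 dpa, 48 members fell, against 4.21% of all genes, and 0 rose, against 4.9% of all genes. The median log2 fold change was -0.83, against 0.01 over all genes, and 99 members had a value below 0. Of the 20 members with under 1% left, 19 fell, of the 22 with 1 to 10% left, 6 fell, and of the 58 with at least 10% left, 23 fell. These groups were sorted by the fall from 8 to 20 dpa, which includes this step, so the high number in the first is in part given by the sorting. TRITD7Av1G236290 (chromosome 7A, 629651787 to 629652149) fell by 6.44 on the log2 scale (adjusted p = 0.00459, edgeR) and TRITD2Bv1G174980 fell by 5.36 ± 0.78 (adjusted p = 0.00159), the largest falls of this step. TRITD7Av1G236290 had 6.98, 0.397 and 0.208 TPM at 13 dpa, against 762.8, 47.1 and 114.0 TPM at 10 dpa. It was also spread at 8 dpa, with 2013, 614.5 and 1054 TPM.

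The count at this step depended on which libraries were used, and not only on the pair that stood apart. It was 15 without replicate 1 of 10 dpa, 61 without replicate 2 of 10 dpa, 25 without replicate 3 of 10 dpa, 30 without replicate 1 of 13 dpa, 48 without replicate 2 of 13 dpa, 19 without replicate 3 of 13 dpa and 10 without replicate 1 of 10 dpa and replicate 3 of 13 dpa together, the last chosen after seeing the data. In all 6 fits without 1 library of either timepoint 15 members were called. With 10 and 13 dpa alone in the model 3 members fell. In that model TRITD7Av1G236290 (adjusted p = 0.0641, edgeR) and TRITD2Bv1G174980 (adjusted p = 0.0559) were not called. With 1 library left out the log2 fold change of TRITD7Av1G236290 was -9.54 to -4.65 and that of TRITD2Bv1G174980 was -5.96 to -4.64. Calls over all genes are not given for the fits in this paragraph. Whether all genes lost calls alike was not examined.

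After 13 dpa few calls remained at this depth of replication. At 15 against 13 dpa 1 member fell, against 0.0497% of all genes, and 0 rose, against 0.0136%. This was TRITD7Av1G027060, which fell by 3.64 ± 0.58 on the log2 scale (adjusted p = 0.0278, edgeR). Its call was lost without replicate 1 or 2 of 13 dpa, any 1 replicate of 15 dpa or replicate 3 of 8 dpa, and 9 members fell without replicate 3 of 13 dpa, where 0.68% of all genes were called in either direction. 25 members had an unadjusted p under 0.05, against 9.69% of all genes, and DESeq2 called 7, against 0.967% of all genes.

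At 18 against 15 dpa, 0 members fell or rose in edgeR, and 0% of all genes were called in either direction. The median log2 fold change of the members was -0.52, against -0.01 over all genes, and 95 members had a value below 0. An unadjusted p under 0.05 was found for 37 members, against 5.67% of all genes, and DESeq2 called 2 members, against 0.0769% of all genes. At 20 against 18 dpa, 0 members fell, against 0.00452% of all genes, and 0 rose, against 0.208%. The median was -0.03, with 55 members below 0 and 43 above. 20 members had an unadjusted p under 0.05, against 16.4% of all genes, and 9 of these 20 had a log2 fold change below 0. DESeq2 called 6, against 4.03% of all genes. Without replicate 1 of 20 dpa 9 were called, 5 that fell and 4 that rose, against 7.91% of all genes. In both directions together, these shares of the members were near those of all genes. The directions differed in DESeq2, where 5 members fell and 1 rose, whereas of the 44,240 genes 200 fell and 1585 rose. For the unadjusted p and the fit without replicate 1 of 20 dpa, where members went both ways, the directions over all genes are not given. The steps from 15 to 18 and from 18 to 20 dpa thus gave no call that held across tools, while the members lay lower relative to all genes in the earlier of the 2 steps.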

How the data were processed

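RNA-Seq of endosperm from 24 libraries was analysed. The authors pseudoaligned the reads to canonical transcripts of the Svevo v1 transcriptome with kallisto (version 0.46.1 in the submitters' processing notes) with its defaults. The estimated counts were deposited unscaled. TPM, also as deposited by the authors, come from the same runs and divide these counts by effective length before bringing each library to the same sum. 1 transcript stood for each gene. 1 CPM stood for 56.2 to 116 counts.

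Members were the 100 genes described in the report. Estimated counts were rounded, and a gene was tested when 3 or more libraries had 10 or more counts, which held for 44,240 genes. Tests were run in R 4.3.3 with edgeR 4.0.16 (TMM, quasi-likelihood F test, 1 model of the 24 libraries with timepoint as factor, Benjamini-Hochberg within a comparison). The study's methods state an absolute log2 threshold of 1.5, which was tried as an alternative to 0.585. Comparisons with 6 or 30 dpa were not tested. Effective lengths were taken as counts per TPM against length, fitted over transcripts of 2000 to 6000 bp with over 200 counts. Alternatives were DESeq2 1.42.0, limma 3.58.1 on log2 TPM, other scalings, filters, thresholds, rankings and list sizes, the replicate number in the model and each library left out. Python 3.11.15 made tables and figures.

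The members, lists and tests were chosen with earlier results of these data known. Members named were the first 10 at 6 dpa, the last 2 with the first 2 outside, the 5 lowest and 5 highest log2 fold changes at 20 against 8 dpa, up to 2 called each way in the other comparisons, and their equal-length or neighbouring partners. Others, which mark limits, pairs or small counts, were named after their values were seen. Product groups were not used here, as only identifiers and positions were matched (98 members, 63,993 transcripts). In data simulated for 20 against 8 dpa (40,617 genes), edgeR called 33 of 100 genes changed 2-fold and 80 of 100 changed 4-fold. It made 5 false calls. Only these genes were changed, from the 8 dpa means, whereas in the data 9784 genes fell and 11329 rose. The simulation therefore does not give the power of this comparison or check its scaling. With 3 pooled endosperm samples from separate plants per timepoint, p-values measure the spread between these samples.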

Additional observations from a re-analysis of the deposited data

How the results depend on the processing

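Between 8 and 20 dpa, 94 to 97 members fell with 1 library left out, but 61 at an absolute log2 over 1.5, 47 of 50 and 185 of 200 members, and of the 100 genes ranked by CPM 78 fell and 1 rose. Their median log2 fold change was -1.88 to -1.67 with 1 library left out, -2.88 without scaling beyond library totals (median of all genes -0.95), -2.98 and -2.97 with limma on log2(TPM + 0.1) and log2(TPM + 1), -1.16 for genes ranked by CPM, -1.64 ranked by the lowest TPM and -1.65 for 200 members. At 10 against 8 dpa, 7 to 21 members fell without 1 or 2 libraries, 23 with limma on log2(TPM + 1), 8 of 50 and 23 of 200. At 13 against 10 dpa, 10 to 61 fell without 1 or 2 libraries (15 to 61 without 1), 3 with the 6 libraries alone, 21 at a log2 over 1.5, 22 of 50 and 85 of 200. At 15 against 13 dpa, 0 to 9 were called without 1 library, 5 without scaling, 7 with DESeq2, 7 and 9 with limma, 3 without a filter, and 0 with the 6 libraries alone, ranked by CPM or among 50 members. DESeq2 called 2 at 18 against 15 dpa and 6 at 20 against 18 dpa, where 0 to 9 were called without 1 library. The members' share at 8 dpa was 3.35% of counts, 7.14% of TPM for 50 and 17.7% for 200 members, and 10.8% to 11.6% with 1 library left out. At 20 dpa it was 0.468% of counts, 0.666% for 50, 2.33% for 200 and 1.36% ranked by the lowest TPM, and 1.21% to 1.29% with 1 library left out. Of the members named with a test, TRITD1Av1G224070 at 20 against 8 dpa had -0.42 to 0.12 with 1 library left out, and 0.12 without replicate 3 of 8 dpa, where its direction turned. The calls of TRITD3Bv1G200930 (-0.52) and TRITD5Av1G047320 (-0.54) were lost with a minimum of 10 CPM in 3 libraries, and other lost calls stand in the report. Lists rechosen without 1 library of 6 dpa, an alternative added after seeing the data, shared 91 to 93 members with the list. Of the 44,240 genes, 4868 fell at 20 against 8 dpa and 812 at 13 against 10 dpa at an absolute log2 over 1.5. With limma on log2(TPM + 1), 3739 fell at 10 against 8 dpa. At 15 against 13 dpa 222 fell without scaling, and 540 and 758 with limma on log2(TPM + 0.1) and log2(TPM + 1). For most fits without 1 or 2 libraries the calls over all genes are not given here. Causes of these shifts were not tested.

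The replicate numbers were not taken to pair the libraries. Same-numbered deviations correlated at -0.195 to 0.254 and not above 0.1 in every pair of any comparison. They came closest at 20 against 18 dpa, with 0.254, 0.109 and 0.0927. The labels do not give the plant of a library, so a pairing by plant could not be checked. With the replicate number as a block 95 members fell at 20 against 8 dpa (median -1.84), 17 at 10 against 8 dpa and 42 at 13 against 10 dpa, 3 were called at 15 against 13 dpa and 0 at the later steps, and 0 rose.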

Other observations

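Beside the 9 members of 312 bp whose gene span equals the coding length, the tables list 96 further transcripts of that length and kind. Of these 96, 17 had a mean of at least 100 TPM at 6 dpa and 61 had under 1 TPM. The tables list 76 transcripts of 201 bp, of which 3 were members. Among coding lengths shared by at least 3 members, 261 bp occurred in 5 members and 324 and 495 bp in 4 each, and no member of these 3 lengths had a gene span equal to the coding length, against 3 of 3 members of 450 bp and 3 of 3 of 201 bp.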
